A study of Mus musculus with 21 samples.

Results

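Livers of mice lacking cystathionine γ-lyase (CSE, encoded by *Cth* and called *Cse* in the study) were compared with livers of mice labelled WT, all fed the control diet. The comparison took 7 of the 21 RNA-sequencing libraries of the study, 4 from the group labelled cse_CTR (KO below) and 3 from the group labelled WT_CTR (WT below), chosen by their titles alone. The KO line was on a 129/C57BL/6 background. In the study's text the comparison animals are described as *Cse*+/-, that is heterozygous, and WT is used below only as a label. The control diet was the defined amino acid diet 5CC7, with every amino acid present, and it was shared by both groups. The minimum age given for the animals was 9 weeks. The study's reporting summary gives male mice for RNA sequencing, and its results text gives calorie restriction. The other 14 libraries came from KO and WT animals on the same diet without cysteine (noCys, 3 KO and 4 WT) or without tryptophan (noTrp, 5 KO and 2 WT). They entered the model and are used only to ask whether a genotype difference seen on the control diet was also measured in other animals.

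CSE catalyses the last step of transsulfuration, the route by which the liver makes cysteine from methionine: cystathionine β-synthase joins homocysteine and serine into cystathionine, and CSE splits cystathionine into cysteine. Cysteine is in turn used for protein, glutathione, taurine and coenzyme A. When an amino acid runs short, uncharged tRNA activates the kinase GCN2, translation is slowed through eIF2α, and the transcription factor ATF4 raises genes of amino acid synthesis, transport and tRNA charging, a programme called the integrated stress response. The comparison addresses what the loss of CSE alone was accompanied by in liver RNA while cysteine was still in the food.

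The deposited counts came to between 9410589 and 27230852 per library. Hepatocyte markers were abundant in all 7 libraries, with all 9 of the markers in the table detected and a summed level of 95190 to 103400 CPM in KO and 101300 to 113500 CPM in WT (CPM, a gene's count per unit of library size after TMM scaling). WT replicate 3 stood apart: genes annotated as ribosomal, transfer or other small non-coding RNA took 10.2% of its counts, against 0.601% to 1.12% in the other 6 libraries. Results are therefore given with and without that library. Across 11 lists of cell type markers, 0 of 58 tested genes were called and 7 had an unadjusted p under 0.05 in edgeR's test, where 0.32% and 9.59% of all genes did, so these counts are near those of any genes. Summed levels overlapped between the groups for 8 of the marker lists other than hepatocytes. They did not overlap for adipocyte markers (14.6 to 24.8 CPM in KO, 6.95 to 13.4 CPM in WT) or pancreas markers (11.4 to 14.3 CPM in KO, 17.4 to 23.8 CPM in WT). Of these, 1 of 7 adipocyte and 4 of 8 pancreas markers were at 0 in all 7 libraries, and their part in the results was not tested. In bulk tissue, fewer cells of a type and less RNA per cell cannot be told apart.

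Of 14370 genes tested, 46 were called at an adjusted p under 0.05 in edgeR's quasi-likelihood test, which is 0.32% of the genes. 10 were higher in KO (0.0696%) and 36 were lower (0.251%). At an unadjusted p under 0.05 there were 1378 genes, or 9.59%, of which 4.51% of all genes were higher and 5.08% lower. 12 of the 36 lower genes were small non-coding RNAs, including a mitochondrial tRNA, and all 12 had their highest value in WT replicate 3. The remaining 34 comprised the 10 higher genes and 24 lower ones. With library totals alone in place of TMM, 15 of 41 called genes were higher (36.6%, against 21.7% with TMM). Adjusted p values are Benjamini-Hochberg values of the edgeR test over all genes tested unless another tool is named, and differences are log2 fold changes, KO minus WT, with their standard error (SE).

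The targeted gene came first. *Cth* (GRCm38 chromosome 3, 157894248 to 157925077, minus strand) was at 286, 221 and 157 CPM in the WT libraries and at 14.6, 10.5, 11.7 and 14.99 CPM in the KO libraries. Every KO library lay far below every WT library, and the call held in all 7 fits that omitted 1 library. The log2 difference was -4.11 (SE 0.31, adjusted p = 4.18e-07), and -4.30 in the fit without WT replicate 3. Within the span of *Cth* but outside its exons, on the same strand, lies the unclassified transcript *Gm43314*, which was at 2.12, 3.02 and 3.14 CPM in WT and at 0.143, 0.535, 0.236 and 0 CPM in KO. Its difference of -3.23 (SE 0.72) was not called (adjusted p = 0.055), though DESeq2 called *Gm43314* (adjusted p = 0.00499), and it was -4.29 without KO replicate 2.

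Among the called genes the largest increase was that of *Asns*, asparagine synthetase, which makes asparagine from aspartate and glutamine and is a known target of ATF4. *Asns* (chromosome 6, 7675169 to 7693254, minus strand) was at 1.91, 1.62 and 1.16 CPM in WT and at 14.3, 31.2, 17.5 and 29.0 CPM in KO. The groups did not overlap, and the lowest KO library was several times above the highest WT library. The difference was 3.86 (SE 0.48, adjusted p = 0.000365), and 3.72 without WT replicate 3 (adjusted p = 0.00814). Because it was the clearest increase, its promoter is shown here, followed by that of *Tmem19*, the only other of the 34 genes whose window held the same letters. Both are the 250 bases before and 50 bases after a RefSeq transcription start on build GRCm38.p6, written 5′ to 3′ on the strand of the gene. Capitals mark a match to TGATGNAA, the core of the element through which ATF4 and its partners are known to act, searched on both strands with the results of these data already known.
Asns, chr6:7693160-7693459, minus strand: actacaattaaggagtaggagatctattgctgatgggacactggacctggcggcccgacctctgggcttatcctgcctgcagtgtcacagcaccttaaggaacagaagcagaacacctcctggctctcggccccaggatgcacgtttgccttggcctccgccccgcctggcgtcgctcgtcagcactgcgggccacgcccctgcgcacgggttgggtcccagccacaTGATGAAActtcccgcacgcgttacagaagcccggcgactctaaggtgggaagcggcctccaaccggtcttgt
Tmem19, chr10:115362452-115362751, minus strand: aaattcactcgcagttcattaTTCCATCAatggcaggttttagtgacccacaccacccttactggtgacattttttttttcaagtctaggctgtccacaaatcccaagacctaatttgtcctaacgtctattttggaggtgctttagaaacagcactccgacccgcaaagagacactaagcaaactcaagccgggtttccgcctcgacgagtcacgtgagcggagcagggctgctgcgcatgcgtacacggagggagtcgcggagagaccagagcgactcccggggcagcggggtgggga

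The *Asns* match begins 23 bases before the start on the strand of the gene, and that of *Tmem19*, a gene that was lower in KO, begins 229 bases before it on the opposite strand. Of the 34 genes, 25 had a promoter entry and 2 held the letters (8%). In the list of integrated stress response genes, 10 of 30 genes with an entry held them (33.3%), among them *Asns*, *Fgf21*, *Nupr1*, *Chac1* and *Trib3*. Among the aminoacyl-tRNA synthetases the letters were in 5 of 12 (41.7%). For comparison, 288 of 10186 tested genes with an entry held them (2.83%). A match is a description of the letters and not a measured binding site.

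The other called increases include *Cd36*, *Sult2a7* and *Tmem97*. *Cd36*, the fatty acid translocase, was at 28.9, 21.03 and 22.1 CPM in WT and at 89.0, 153, 70.1 and 64.9 CPM in KO. It was higher by 1.98 (SE 0.32, adjusted p = 0.0107) with no overlap between groups, although without WT replicate 3 its difference of 1.93 was not called (adjusted p = 0.0745). *Sult2a7*, a cytosolic sulfotransferase of the hydroxysteroid family, was at 2.12, 2.94 and 2.44 CPM in WT and at 26.9, 76.6, 17.6 and 18.8 CPM in KO. KO replicate 2 was far above the other KO libraries for this gene, and all of them were well above WT, with a difference of 3.81 (SE 0.68, adjusted p = 0.0223). Without KO replicate 2 the difference of *Sult2a7* was 3.06 (adjusted p = 0.0715), and it was called in 3 of the 7 fits that omitted 1 library, by DESeq2 but not by limma-voom (adjusted p = 0.0871). *Sult2a7* has close paralogs beside it, so reads may have been split among them. *Tmem97*, a membrane protein of cholesterol handling also known as the sigma-2 receptor, was at 99.2, 87.7 and 102 CPM in WT and at 144, 130, 121 and 118 CPM in KO. This was a small rise of 0.41 (SE 0.08, adjusted p = 0.0398).

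The remaining increases were genes of varied function. *Chchd6*, a subunit of the MICOS complex of mitochondrial cristae, was at 2.54, 3.17 and 3.02 CPM in WT and at 8.06, 8.10, 5.83 and 5.30 CPM in KO, a rise of 1.23 (SE 0.22). *Olig1*, a basic helix-loop-helix factor known from oligodendrocytes, was at 1.59, 2.47 and 1.51 CPM in WT and at 7.13, 7.35, 10.7 and 6.85 CPM in KO, a rise of 2.07 (SE 0.39). *Cenpm*, a centromere protein, was at 2.75, 3.56 and 4.41 CPM in WT and at 9.56, 7.32, 7.64 and 8.04 CPM in KO, a rise of 1.19 (SE 0.25). These 3 genes were low in WT, and their KO libraries were all above the WT range. *Snhg11*, a host transcript of small nucleolar RNAs, was at 20.3, 10.6 and 16.5 CPM in WT and at 58.7, 42.7, 22.2 and 34.1 CPM in KO, a rise of 1.33 (SE 0.28). *Ubr2*, a ubiquitin ligase of the N-degron pathway, was at 52.6, 56.0 and 55.9 CPM in WT and at 72.3, 88.5, 74.7 and 75.3 CPM in KO, a rise of 0.50 (SE 0.09). *Cdc42bpg*, a kinase that acts downstream of the small GTPase CDC42, was at 16.7, 16.2 and 13.4 CPM in WT and at 27.3, 26.2, 21.4 and 21.1 CPM in KO, a rise of 0.64 (SE 0.12). The adjusted p of these 6 genes ranged from 0.0223 for *Chchd6* to 0.0453 for *Cenpm*. *Snhg11* and *Olig1* share exon sequence with an annotated neighbour, and the strand setting of the counting was not stated in the sources used here.

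**Figure D1:**
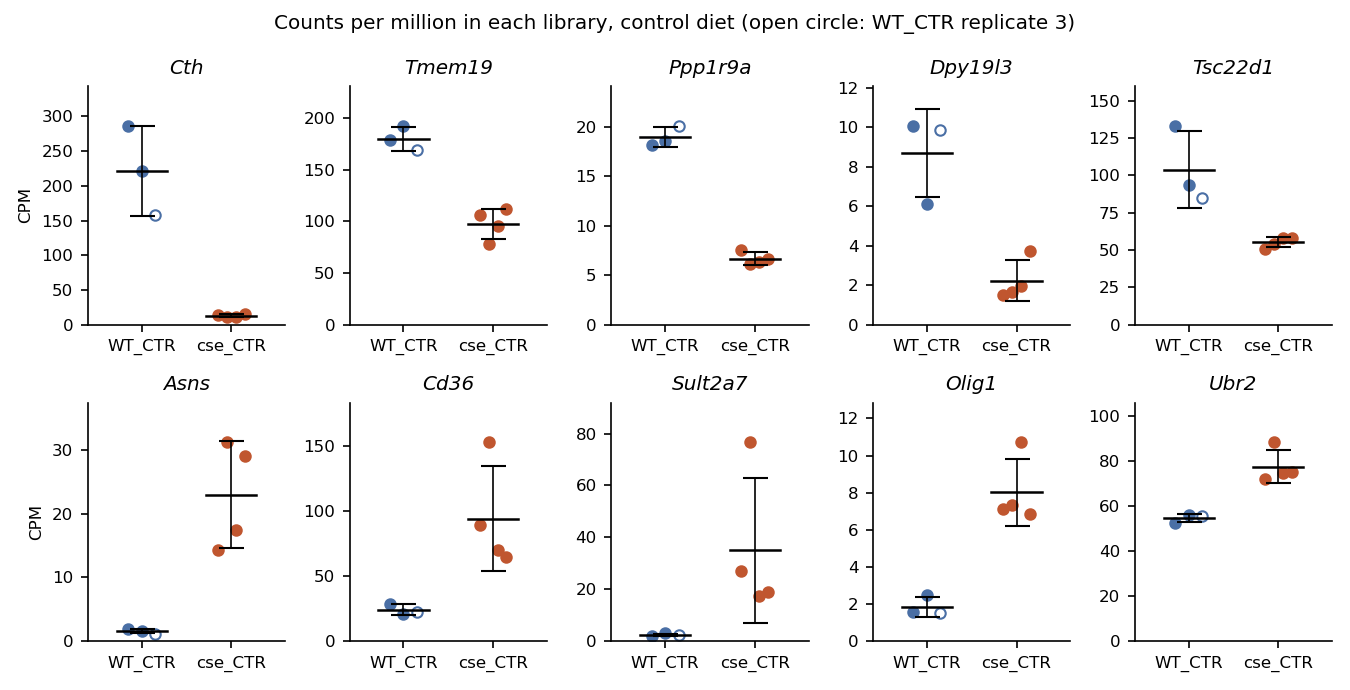
CPM (TMM-scaled) in each control-diet library for 5 genes that fell in KO (top row) and 5 that rose (bottom row). Points are libraries, the open circle is WT replicate 3, bars are the mean ± SD (n = 3 WT, n = 4 KO), and each axis starts at 0. In all 10 panels the groups are apart, as for 10.9% of all genes tested, and *Cth* lies between 10.5 and 14.99 CPM in KO.

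Among the decreases other than *Cth*, 4 were called whichever library was left out. *Tmem19*, a transmembrane protein, was at 179, 193 and 169 CPM in WT and at 106, 78.3, 95.5 and 112 CPM in KO, and it fell by 0.88 (SE 0.10, adjusted p = 0.000119). *Ppp1r9a*, which encodes neurabin, a scaffold that ties protein phosphatase 1 to actin, was at 18.2, 18.6 and 20.1 CPM in WT and at 7.56, 6.10, 6.30 and 6.67 CPM in KO, and it fell by 1.51 (SE 0.19, adjusted p = 0.000365). Both groups were tight for this gene, with SDs of 1.00 CPM in WT and 0.647 CPM in KO. *Dpy19l3*, an enzyme that attaches mannose to tryptophan residues of secreted proteins, was at 10.1, 6.11 and 9.87 CPM in WT and at 1.498, 1.64, 1.97 and 3.75 CPM in KO, and it fell by 2.002 (SE 0.31, adjusted p = 0.00664). *Perp*, a membrane protein of desmosomes and a target of p53, was at 106, 109 and 96.4 CPM in WT and at 67.1, 72.9, 66.1 and 60.4 CPM in KO, and it fell by 0.64 (SE 0.11, adjusted p = 0.0168). None of the 4 showed an overlap between the groups, and 10.9% of all genes tested showed none either.

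The other called decreases are given gene by gene, and no theme among them was tested. *Tsc22d1*, a leucine zipper protein induced by TGF-β, was at 133, 93.8 and 84.9 CPM in WT and at 50.8, 54.3, 58.0 and 57.8 CPM in KO. The KO libraries lay within a narrow range below all WT libraries, and the fall of 0.91 (SE 0.16, adjusted p = 0.0223) was also called without WT replicate 3 (adjusted p = 0.0196). *Smo*, the signal transducer of the Hedgehog pathway, was at 6.04, 5.57 and 6.62 CPM in WT and at 2.64, 1.499, 2.44 and 3.38 CPM in KO, a fall of 1.32 (SE 0.25, adjusted p = 0.0284). *Robo1*, a receptor for Slit guidance proteins, was at 8.58, 7.19 and 7.67 CPM in WT and at 4.21, 2.75, 3.07 and 4.84 CPM in KO, a fall of 1.09 (SE 0.23, adjusted p = 0.0453). *Tet3*, a dioxygenase that oxidises methylated cytosine, was at 30.1, 25.7 and 27.4 CPM in WT and at 19.3, 18.3, 22.05 and 17.8 CPM in KO, a fall of 0.52 (SE 0.11, adjusted p = 0.0425). The last 3 did not overlap between groups either (10.9% of all genes tested did not). These 3 were not called without WT replicate 3, where their adjusted p was 0.151, 0.189 and 0.194.

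*Arhgap26*, a GTPase-activating protein, was at 21.1, 24.6 and 22.5 CPM in WT and at 6.78, 9.89, 10.5 and 12.9 CPM in KO, a fall of 1.19 (SE 0.21). *Cdh2*, N-cadherin, was at 68.3, 60.8 and 69.6 CPM in WT and at 42.9, 47.6, 50.2 and 45.1 CPM in KO, a fall of 0.51 (SE 0.11). The adjusted p was 0.0223 for *Arhgap26* and 0.0425 for *Cdh2*, and neither was called without WT replicate 3. Exons of *Arhgap26* overlap those of 2 predicted genes.

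5 of the called decreases were *Gstp1*, *Adh6-ps1*, *Prps2*, *Sdr9c7* and *Arsg*. *Gstp1*, the pi-class glutathione transferase, was at 914, 960 and 782 CPM in WT and at 327, 356, 575 and 649 CPM in KO. The KO libraries were spread widely but all lay below WT, with a fall of 0.89 (SE 0.18, adjusted p = 0.0398), and reads may be shared with a near-identical copy of the gene. *Adh6-ps1*, a transcribed alcohol dehydrogenase pseudogene, was at 142, 46.5 and 103 CPM in WT and at 2.64, 5.57, 10.2 and 7.86 CPM in KO. It fell by 3.90 (SE 0.75, adjusted p = 0.0284), the second largest fall among the 34 after *Cth*, and the related *Adh* genes could share its reads. *Prps2*, which makes the phosphoribosyl donor of nucleotide synthesis, was at 11.5, 12.5 and 12.5 CPM in WT and at 6.71, 5.89, 7.95 and 9.05 CPM in KO, a fall of 0.74 (SE 0.14, adjusted p = 0.0284). *Sdr9c7*, a short-chain dehydrogenase, was at 42.5, 37.7 and 47.0 CPM in WT and at 11.0, 25.9, 20.5 and 17.3 CPM in KO, a fall of 1.17 (SE 0.23, adjusted p = 0.0291). *Arsg*, a lysosomal sulfatase of heparan sulfate breakdown, was at 34.4, 45.9 and 29.4 CPM in WT and at 22.7, 20.6, 22.5 and 19.3 CPM in KO, a fall of 0.79 (SE 0.14, adjusted p = 0.0225). Of these 5 genes, *Arsg* alone was also called without WT replicate 3 (adjusted p = 0.0132), and some of its exon sequence overlaps *Slc16a6*.

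The remaining 8 called decreases follow. *Slc17a8*, a vesicular glutamate transporter, was at 32.8, 23.0 and 35.0 CPM in WT and at 13.7, 11.8, 12.5 and 6.49 CPM in KO, a fall of 1.43 (SE 0.27). *Wfdc2*, a secreted protein with whey acidic protein domains, was at 4.13, 4.33 and 2.90 CPM in WT and at 1.64, 1.03, 1.18 and 1.01 CPM in KO, a fall of 1.65 (SE 0.29), and it was also called without WT replicate 3. *Trim30d*, of the TRIM30 cluster of near-identical genes, was at 4.98, 3.79 and 3.83 CPM in WT and at 1.498, 1.61, 1.73 and 1.65 CPM in KO, a fall of 1.37 (SE 0.27). The groups were apart in all 3 cases, as for 10.9% of all genes tested. *Trim2*, a ubiquitin ligase, was at 26.7, 29.8 and 32.6 CPM in WT and at 22.5, 13.0, 16.6 and 17.8 CPM in KO, a fall of 0.77 (SE 0.16). *Casd1*, which acetylates sialic acid, was at 29.2, 25.2 and 29.2 CPM in WT and at 21.1, 19.5, 21.4 and 21.9 CPM in KO, a fall of 0.41 (SE 0.09). *Ccdc171* had 3.601 to 4.45 CPM in WT and 1.02 to 2.14 CPM in KO. *Fam19a5*, a secreted chemokine-like protein, had 1.51 to 2.22 CPM in WT and 0.315 to 0.856 CPM in KO. *Hebp2*, a heme-binding protein, had 0.741 to 1.16 CPM in WT and 0.0713 to 0.274 CPM in KO. Its KO mean was 0.0749 CPM without cysteine and 0.0897 CPM without tryptophan. *Hebp2* thus passed the count filter only through WT libraries, where it was high, and its KO values were near the floor. It had no adjusted p in DESeq2 or in the fit of the 7 libraries alone. The adjusted p of these 8 genes ranged from 0.0223 for *Wfdc2* to 0.0489 for *Fam19a5*.

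How firmly these calls stood differed. All 34 genes had every KO library above or below every WT library, as 10.9% of all genes tested did (5.39% above and 5.53% below). The 34 were chosen by their p in these same libraries, so this is not separate support. With the groups apart, leaving out WT replicate 3 could not turn a sign round, and all 34 kept theirs. None of the 34 log2 differences moved by more than that of *Cth*, from -4.11 to -4.30, but only 9 of them were still called, when 10 of 14331 genes were called in all (0.0698%): *Cth*, *Asns*, *Tmem19*, *Ppp1r9a*, *Dpy19l3*, *Perp*, *Tsc22d1*, *Wfdc2* and *Arsg*. The other called gene was *Slc25a27*, a mitochondrial carrier of the uncoupling protein family (1.07, adjusted p = 0.102 with all libraries), named here because of its call in that fit. 6 of the 34 were called in all 7 fits that left out 1 library, namely the first 6 of the 9, whereas *Cenpm* and *Ccdc171* were called in none of them. The count of called genes was 36 without WT replicate 1, 53 without WT replicate 2 and 10 without WT replicate 3. It was 16, 9, 15 and 22 without KO replicates 1, 2, 3 and 4. DESeq2 called 32 of the 34 and gave the other 2, *Hebp2* and *Fam19a5*, no adjusted p. Limma-voom with quality weights called 32, but not *Snhg11* (adjusted p = 0.0943) or *Sult2a7* (adjusted p = 0.0871). A fit of the 7 libraries alone called 5, namely *Cth*, *Asns*, *Ppp1r9a*, *Olig1* and *Adh6-ps1*, and did not test *Hebp2*.

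**Figure D2:**
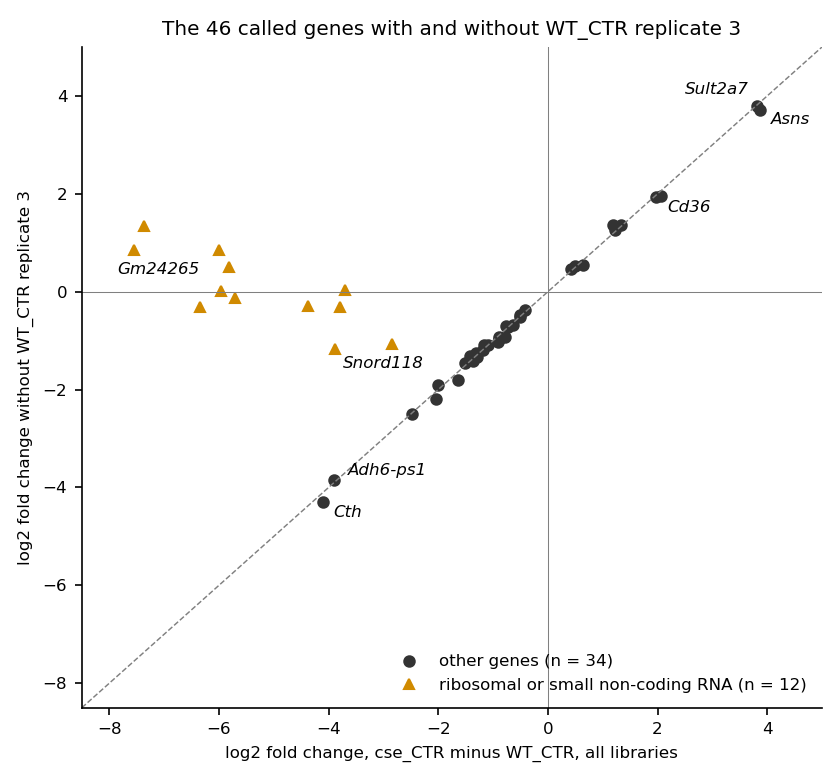
Log2 fold change (KO minus WT, control diet) of the 46 called genes with all 7 libraries (horizontal axis) and without WT replicate 3 (vertical axis). The dashed line marks equal values. The 34 other genes lie along it, while the 12 small non-coding genes lie between -7.55 and -2.84 on the horizontal axis and between -1.16 and 1.34 on the vertical one.

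The 12 small non-coding genes behaved otherwise. They were snRNAs, snoRNAs, a small Cajal body RNA, miRNA-annotated loci, the RNA component of RNase P and a mitochondrial tRNA. The largest differences were those of the snRNA loci *Gm24265* (-7.55), *Gm25099* (-7.36) and *Gm24407* (-6.34). *Gm24265* was at 0.847, 0.541 and 699 CPM in the WT libraries and at 2.78, 0.964, 0.866 and 0.274 CPM in KO, so the high value was in WT replicate 3 alone. The median difference of the 12 was -5.76 with all libraries and -0.05 without WT replicate 3, and 0 of them were called without it. Without cysteine, in other libraries, *Snord118* (-4.78, adjusted p = 0.00189) and *Snord13* (-4.50, adjusted p = 0.0078) were called lower in KO and the other 10 were not called. Of the 85 tested genes of these types, 56 had their highest value in that library.

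The list of integrated stress response genes held 34 tested members. 1 of them was called, *Asns*. At an unadjusted p under 0.05 there were 4 (11.8%, against 9.59% of all genes), and all 4 were above 0. The median difference was 0.29, with 28 of 34 above 0, against 49.9% of all genes. *Psat1*, an enzyme of serine synthesis, was at 0.741, 0.618 and 0.232 CPM in WT and at 1.07, 5.96, 1.89 and 2.01 CPM in KO, a difference of 2.43 (SE 0.60, adjusted p = 0.0879), which DESeq2 called (adjusted p = 0.0118). In edgeR *Psat1* was called in 0 of the 7 fits that omitted 1 library, with an adjusted p of up to 0.381, and its difference was 1.57 without KO replicate 2. *Fgf21*, a hormone released by the starved liver, was at 0.741, 0.232 and 0.929 CPM in WT and at 3.78, 19.4, 0.787 and 0.823 CPM in KO. For *Fgf21* the groups overlapped, and 1 KO library carried most of the signal. *Eif4ebp1*, a repressor of cap-dependent translation, was at 75.2, 73.5 and 75.2 CPM in WT and at 82.9, 85.9, 94.3 and 102 CPM in KO, a difference of 0.29 (adjusted p = 0.283).

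Aminoacyl-tRNA synthetases, which charge tRNAs with their amino acids, gave 19 of 20 positive differences with a median of 0.19. None was called (0.32% of all genes were), and 5 had an unadjusted p under 0.05 (25%, against 9.59% of all genes). The 2 with the smallest p were *Mars*, for methionine (0.51, adjusted p = 0.223), and *Cars*, for cysteine (0.71, adjusted p = 0.227). *Cars* was at 19.8, 18.4 and 18.6 CPM in WT and at 29.3, 44.1, 21.5 and 27.9 CPM in KO, without overlap.

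The counts for sulfur amino acid genes stand beside 0.32% called and 9.59% at an unadjusted p under 0.05 over all genes. In the methionine cycle and transsulfuration, 17 genes were tested, *Cth* alone was called, and the median difference was 0.11. *Cbs*, the enzyme upstream of CSE, was at 380, 440 and 375 CPM in WT and at 312, 321, 338 and 358 CPM in KO, a difference of -0.26 (SE 0.12, adjusted p = 0.483). *Mat1a*, which makes S-adenosylmethionine in liver, differed by 0.43 (adjusted p = 0.531). In the list of cysteine catabolism and sulfide, 0 of 12 genes were called and 0 had an unadjusted p under 0.05, against 9.59% of all genes. Its leading gene by p was *Got1* (0.59, adjusted p = 0.654), and *Cdo1*, cysteine dioxygenase, differed by 0.15 (adjusted p = 0.774).

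Of 15 genes of glutathione synthesis and turnover, 0 were called, against 0.32% of all genes, 2 had an unadjusted p under 0.05 (13.3%, against 9.59%) and the median was 0.03. Those 2 were *Gpx1*, glutathione peroxidase (0.37, adjusted p = 0.34), and *Oplah*, 5-oxoprolinase (0.37, adjusted p = 0.397). Of 27 genes that depend on NRF2, the oxidative stress factor, 0 were called, 2 had an unadjusted p under 0.05 (7.41%, near the 9.59% of all genes) and the median was 0.07. The leading gene was *G6pdx*, which starts the pentose phosphate pathway (0.88, adjusted p = 0.336), and its groups overlapped. *Gstp1*, called lower above, was in neither list.

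Cholesterol synthesis had the highest share of small p values among the 22 lists that were not cell type markers. Of its 24 genes 22 had a difference above 0, 15 had an unadjusted p under 0.05 (62.5%, against 9.59% of all genes), and all 15 were above 0. The median difference was 0.53, or 0.48 without WT replicate 3, when 13 had an unadjusted p under 0.05. None was called (0.32% of all genes were). DESeq2 called 2, among 127 of 14370 genes in all, and edgeR without the count filter called 4, among 154 of 26504. *Acat2*, the cytosolic thiolase that starts the pathway, was at 37.0, 35.3 and 36.8 CPM in WT and at 57.4, 53.8, 44.7 and 45.4 CPM in KO, a difference of 0.47 (SE 0.11, adjusted p = 0.0795). *Msmo1*, a sterol demethylase, was at 113, 80.2 and 108 CPM in WT and at 242, 229, 153 and 158 CPM in KO, a difference of 0.96 (SE 0.28, adjusted p = 0.181). KO replicates 1 and 2 were the highest for both. *Mvd* differed by 1.16 (adjusted p = 0.185) and *Hmgcs1* by 0.92 (adjusted p = 0.194), the latter with overlapping groups. *Tmem97*, called above, was not in the list.

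Acute-phase genes, whose products the liver secretes in inflammation, had the highest median of the lists, 1.99, with 13 of 13 above 0. 6 had an unadjusted p under 0.05 (46.2%, against 9.59% of all genes), and 0 were called. DESeq2 called 3 of them among 127 genes in all, edgeR without the count filter 3 among 154 and limma-voom 2 among 86. The leading genes were the metallothioneins *Mt1* and *Mt2*, which bind zinc and copper and were listed here because they are also induced in inflammation. *Mt1* was at 72.1, 199 and 117 CPM in WT and at 584, 413, 517 and 936 CPM in KO, a difference of 2.24 (SE 0.57, adjusted p = 0.102). *Mt2* was at 15.1, 76.1 and 31.9 CPM in WT and at 234, 198, 262 and 535 CPM in KO, a difference of 2.89 (SE 0.78, adjusted p = 0.135). Neither overlapped between the groups, and DESeq2 called both (adjusted p = 0.0283 for *Mt1* and 0.0315 for *Mt2*). Without WT replicate 2 the difference of *Mt2* was 3.71 (adjusted p = 0.131). *Orm3*, an orosomucoid, was at 2.75, 3.48 and 4.65 CPM in WT and at 19.5, 6.32, 9.84 and 22.7 CPM in KO, a difference of 1.99 (adjusted p = 0.125, and 0.0197 by DESeq2). *Orm2* differed by 2.06 (adjusted p = 0.359). The median of the list without WT replicate 3 was 1.96.

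Liver genes that differ between the sexes were listed apart. Of 10 tested female-biased genes, 9 had a difference above 0 (49.9% of all genes did), with a median of 0.97, and 4 had an unadjusted p under 0.05 (40%, against 9.59% of all genes), 3 of them above 0 and 1 below. *Sult2a7* was called (0.32% of all genes were). DESeq2 and edgeR without the count filter each called 2 of the list, among 127 and 154 genes in all. *Cyp2b9*, a female-biased cytochrome P450, was at 0.635, 2.09 and 1.39 CPM in WT and at 23.1, 77.7, 4.88 and 10.1 CPM in KO, a difference of 4.37 (SE 1.30, adjusted p = 0.208, and 0.0148 by DESeq2), or 3.15 without KO replicate 2. Its KO libraries were all above WT but varied widely. Of 15 male-biased genes, 9 had a difference below 0, with a median of -0.33, and 0 were called. *Cspg5* led that list with a difference of -2.64 (adjusted p = 0.116), at 1.38, 0.309 and 2.56 CPM in WT and at 0.143, 0.250, 0.236 and 0.183 CPM in KO. The difference of *Cspg5* was -1.89 without WT replicate 3 (adjusted p = 0.5) and -3.17 without WT replicate 2, where it was called (adjusted p = 0.0286).

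Of 22 genes of fatty acid oxidation and PPAR-α targets, *Cd36* alone was called, 1 had an unadjusted p under 0.05 (4.55%, below the 9.59% of all genes) and the median was 0.14. The share of all genes called, 0.32%, also stands behind the counts that follow. The fatty acid synthesis list had 10 of 20 above 0, a median of -0.01, and 0 called. Among 10 sulfotransferase and sulfate activation genes, *Sult2a7* was called, with 2 called by DESeq2, 2 by edgeR without the count filter and 0 by limma-voom. Those 3 fits called 127, 154 and 86 genes in all. *Sult1e1*, the oestrogen sulfotransferase, was at 0.741, 1.08 and 0.465 CPM in WT and at 0.785, 5.32, 6.61 and 23.4 CPM in KO, a difference of 3.45 (adjusted p = 0.139, and 0.0085 by DESeq2) with an overlap between groups, or 2.42 without KO replicate 4. Among 6 alcohol dehydrogenase genes, *Adh6-ps1* alone was called, and *Adh4* differed by -0.49 (adjusted p = 0.314). In the other 8 lists 0 genes were called. Endoplasmic reticulum chaperones had 9 of 18 differences above 0 and interferon response genes 5 of 12, each with 0 genes at an unadjusted p under 0.05. The remaining lists had medians of 0.07 for coenzyme A synthesis and breakdown, 0.07 for gluconeogenesis and amino acid catabolism, -0.07 for the clock, 0.35 for immediate early genes (4 of 14 at an unadjusted p under 0.05, 28.6%, with 3 above 0 and 1 below), -0.10 for pericentral genes and 0.11 for periportal genes.

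**Figure D3:**
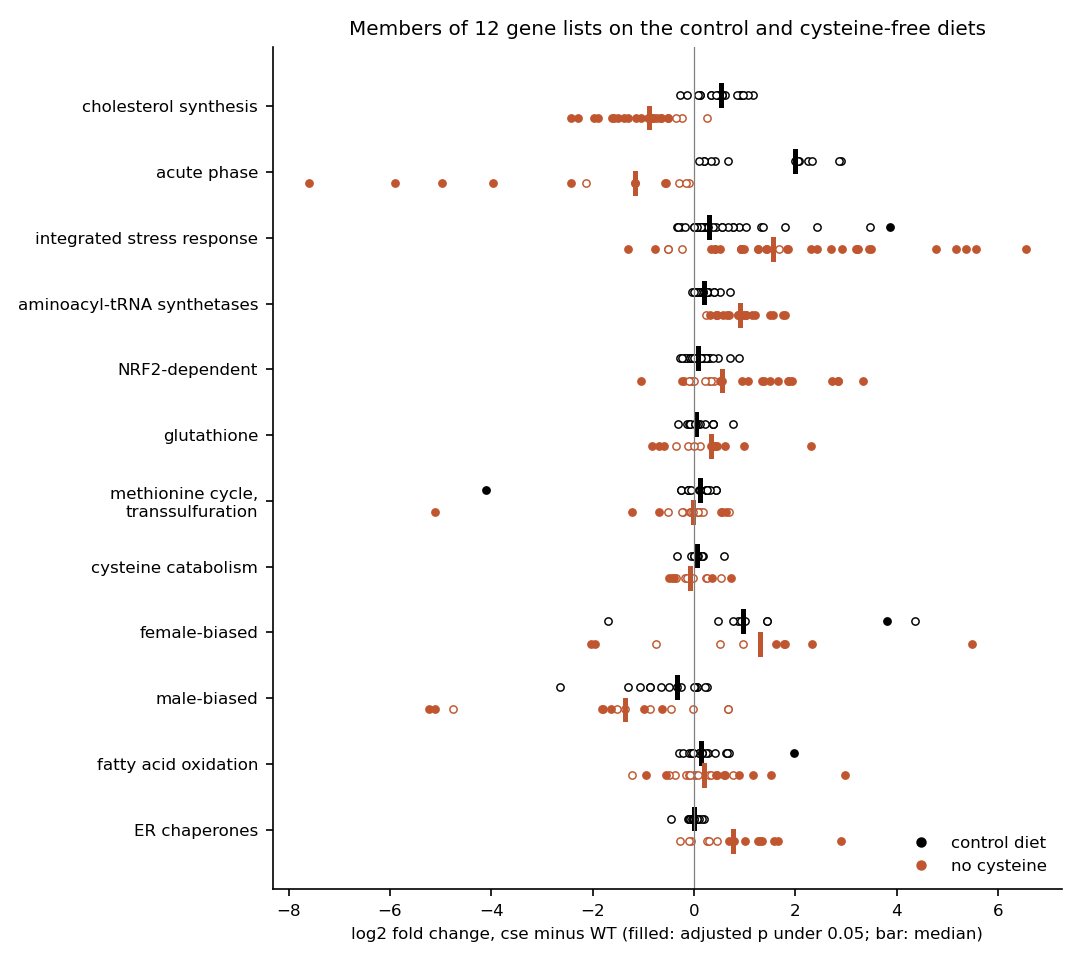
Log2 fold change (KO minus WT) of each member of 12 gene lists on the control diet (black) and without cysteine (orange). Circles are genes, filled where the adjusted p was under 0.05, and vertical bars are medians. On the control diet the bars of cholesterol synthesis (0.53) and acute phase (1.99) lie right of 0, and without cysteine they lie left of it (-0.88 and -1.16).

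The same genotype comparison in other animals, on the depleted diets, gave a second measurement of the 34 genes. Without cysteine, 32 of the 34 had the same sign as on the control diet and 25 of them were called in that direction (over all genes, 60% had the same sign and 19.5% were also called). Without tryptophan, where 28 of all genes were called (0.195%), 31 of the 34 had the same sign and 10 were called in that direction (over all genes, 57.2% and 0.174%). The 10 make up 10 of the 28 genes called without tryptophan, and the 25 are a small part of the 4055 called without cysteine (28.2%). On all 3 diets 9 genes were called in 1 direction. They were *Cth*, *Tmem19*, *Ppp1r9a* and *Robo1*, lower, and *Asns*, *Cd36*, *Sult2a7*, *Snhg11* and *Cenpm*, higher. This count depends on the fit. The 10 called without tryptophan became 6 without WT_noTrp replicate 1, and 3 by limma-voom or with only the compared groups fitted.

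The differences of 3 of those 9 are set side by side. *Asns* differed by 3.86 on the control diet, 5.56 without cysteine and 2.99 without tryptophan. *Cd36* differed by 1.98, 2.98 and 2.38 in the same order, and *Ppp1r9a* by -1.51, -1.54 and -1.27. Differences between diets were tested with an interaction term. It was called for 6 of the 34 without cysteine (over all genes, 7.44%) and for 0 without tryptophan (0 of all genes in edgeR; 821 of all genes, 5.71%, and 10 of the 34 had an unadjusted p under 0.05). DESeq2 called 1 of the 46 without tryptophan. *Asns* (1.70, adjusted p = 0.125) and *Cd36* (1.01, adjusted p = 0.155) were not among the 6.

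The 6 went in different directions. *Tmem19* fell further without cysteine, by 1.57 against 0.88 (interaction -0.68, adjusted p = 0.00602). *Wfdc2* fell by 4.97 against 1.65 (interaction -3.33, adjusted p = 0.00169). Its KO mean without cysteine was 0.096 CPM (SD 0.096), near the floor, so the size of that fall is uncertain. *Perp* fell by 1.15 against 0.64 (interaction -0.51, adjusted p = 0.0463). The other 3 were called on the control diet but not without cysteine. *Arsg* differed by 0.08 there (interaction 0.87, adjusted p = 0.0129), *Gstp1* by -0.03 (interaction 0.87, adjusted p = 0.047) and *Cdc42bpg* by -0.07 (interaction -0.70, adjusted p = 0.0162). Mean CPM of *Arsg* was 36.6 in WT and 21.3 in KO on the control diet, and 22.6 and 24.1 without cysteine. For *Cdc42bpg* it was 15.4 and 24.0, then 25.4 and 24.2, so for both the WT mean moved most. For *Gstp1*, at 885 and 477, then 1001 and 982, the KO mean moved most. The interaction includes the control-diet difference by which these genes were chosen. Without WT replicate 3 the interaction was no longer called for *Perp* (-0.47, adjusted p = 0.104) or *Gstp1* (0.94, adjusted p = 0.0526), though its size moved little.

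**Figure D4:**
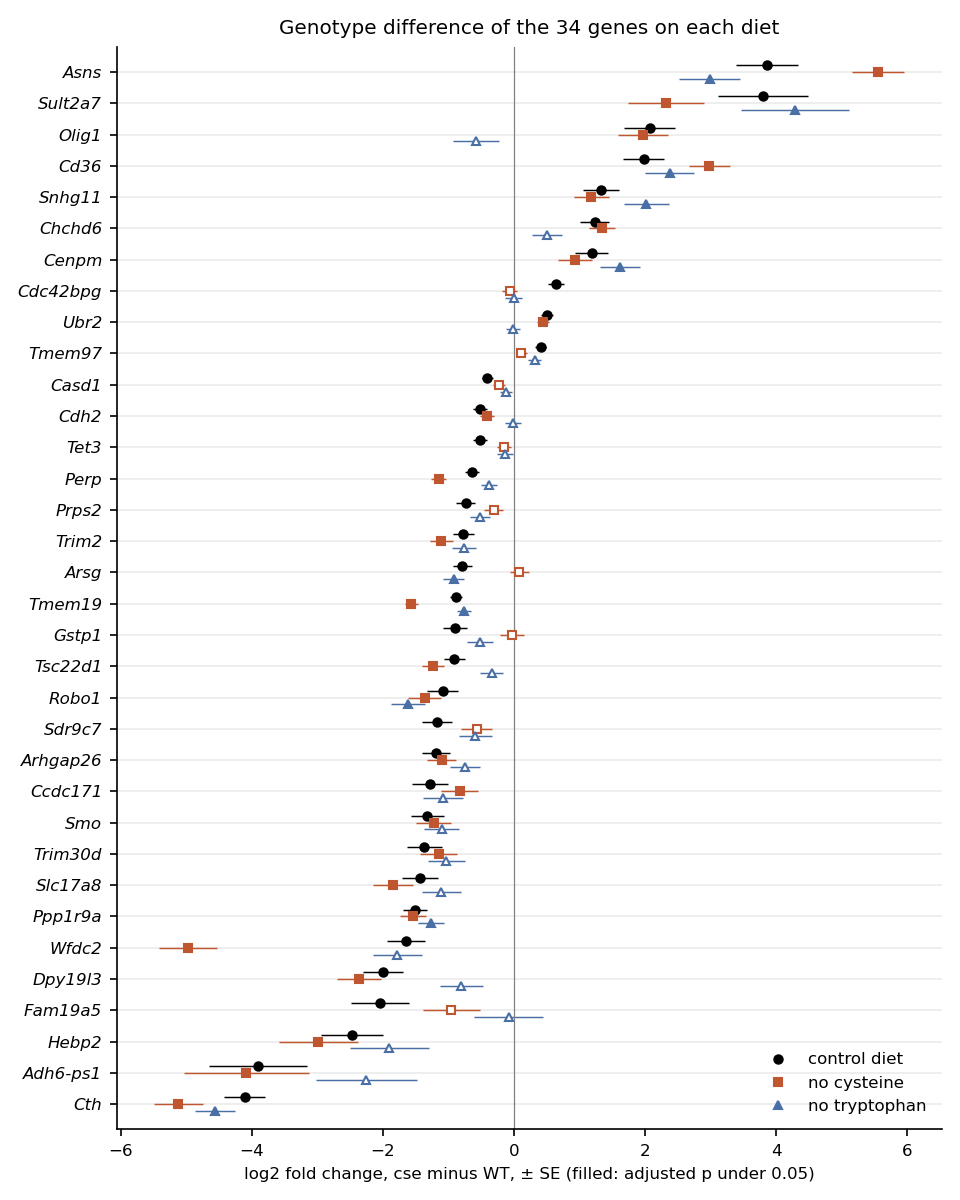
Log2 fold change (KO minus WT, ± SE) of the 34 genes on the control diet (circles), without cysteine (squares) and without tryptophan (triangles), in order of the control-diet value. Filled symbols have an adjusted p under 0.05, as all control-diet symbols do by choice of the genes. *Asns* and *Cth* are filled on all 3 diets.

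For 4 of the lists the values without cysteine are set beside those of the control diet. Over all genes, 28.2% were called without cysteine and 7.44% had a called interaction. The median of cholesterol synthesis was 0.53 on the control diet and -0.88 without cysteine, where 19 of 24 genes were called lower, and the interaction was called for 20 of the 24. The acute-phase median was 1.99 and then -1.16, with 8 of 13 called lower and an interaction called for 7. Integrated stress response genes had medians of 0.29 and 1.56, with 26 of 34 called higher and 2 lower without cysteine and an interaction called for 12, all larger. For the NRF2 list the medians were 0.07 and 0.56, with 16 of 27 called higher and 2 lower, and an interaction called for 10 in the larger direction and 1 in the smaller. Without tryptophan the medians of these 4 lists were 0.46, 0.53, 0.05 and 0.05, and no interaction was called.

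Positions in the genome were examined because the line was of mixed background. Over all genes, 0.32% were called and 9.59% had an unadjusted p under 0.05. Within 5 Mb of *Cth*, 17 other genes were tested, 0 were called and 2 had an unadjusted p under 0.05 (11.8%). These 2 were *Gm43314*, above, and *1810013D15Rik*, which was at 0.635, 5.49 and 6.39 CPM in WT and at 9.42, 10.5, 6.22 and 11.1 CPM in KO, a difference of 1.15 (adjusted p = 0.359) with overlapping groups. Chromosome 6 held 6 of the 34 genes among 705 tested (0.851%), and chromosome 10 held 5 among 678 (0.737%). Over all genes tested the share was 0.237%, and on the other chromosomes it ran from 0 to 0.58%. Within 20 Mb of *Cth*, 88 other genes were tested, 1 was called, *Adh6-ps1*, and 7 had an unadjusted p under 0.05 (7.96%). Within 5 Mb of *Asns*, a centre picked for its value, 30 other genes were tested. Of these, 2 were called and 8 had an unadjusted p under 0.05 (26.7%, against 9.59% of all genes). The called ones were *Ppp1r9a*, whose midpoint lies 2.65 Mb away, and *Casd1*, 3.06 Mb away, and both were lower while *Asns* was higher. *Perp* and *Hebp2*, lower in KO, both lie on chromosome 10, at 18845020 to 18857073 and 18539498 to 18546076. *Hebp2*, 1 of the 5 on that chromosome, passed the count filter only through WT libraries. The genotype of the animals at these regions was not measured, and its part in the results was not tested.

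**Figure D5:**
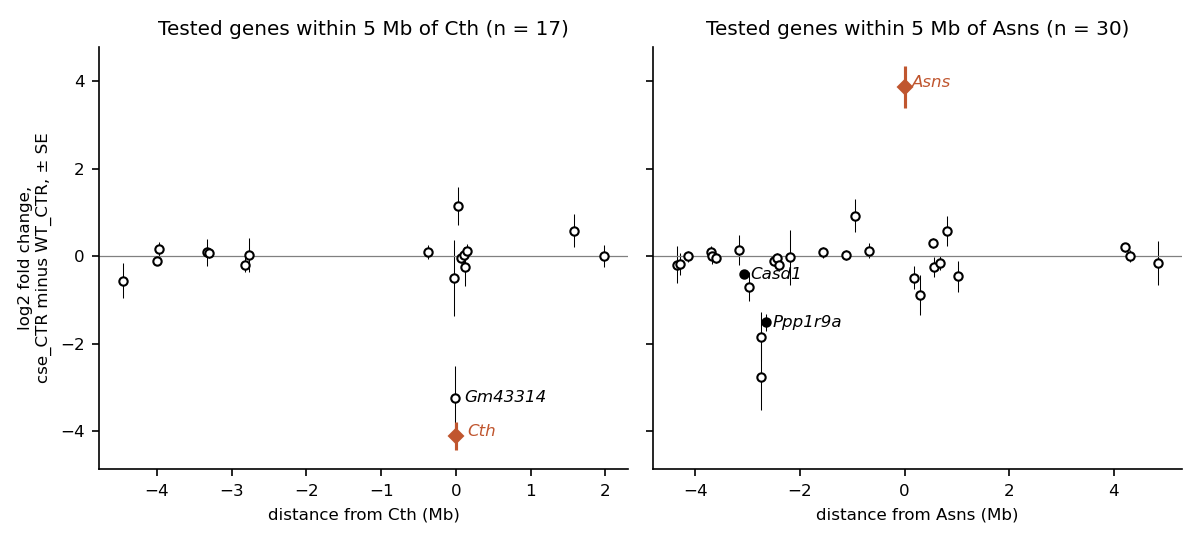
Log2 fold change (KO minus WT, control diet, ± SE) of tested genes within 5 Mb of *Cth* (left, n = 17) and of *Asns* (right, n = 30), by distance in Mb. Filled circles have an adjusted p under 0.05 and diamonds are *Cth* and *Asns* themselves. No neighbour of *Cth* is filled, and near *Asns* only *Ppp1r9a* and *Casd1* are.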

How the data were processed

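Poly(A)-selected liver RNA from 21 mice was sequenced from both ends. The authors aligned reads to GRCm38 with HISAT2 2.1.0 and deposited raw integer counts per gene from HTSeq 0.11.0. The annotation release and strand setting were not given in the sources used here. Groups came from sample titles, and 1 column that matched no sample was not used. GENCODE M21 gave symbols and positions for 45229 of 46078 identifiers.

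Counts were analysed in R 4.3.3 with edgeR 4.0.16. Genes were kept by filterByExpr (minimum count 10, minimum total 15), scaled by TMM, fitted in a one-way model over 6 groups with all 21 libraries, and tested two-sided with quasi-likelihood F-tests and Benjamini-Hochberg adjustment (threshold 0.05). The steps were tested on simulated data. DESeq2 1.42.0 (the study's tool), limma-voom 3.58.1, RLE factors, library totals, no filter, the 2 groups alone and a replicate block were alternatives. Further alternatives left out each library, or left out ribosomal, small non-coding and unclassified genes but not mitochondrial tRNAs. Each library is 1 animal by its title, and p-values measure the spread between these animals.

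The members, gene lists and motif were chosen with earlier results of these data known. The text names *Cth*, every called gene with a symbol that is neither predicted nor a small non-coding RNA, and in each list the called members and some of the 4 with the smallest p. It also names genes near *Cth* with the smallest p and up to 3 small non-coding genes of largest change. *Slc25a27*, *Snord118*, *Snord13* and the genes listed for their promoter letters were chosen after their values were seen.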

Additional observations from a re-analysis of the deposited data

Results flagged for a closer look

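In 4 of 118 named genes 1 KO library lay far from the other 3 by Dixon's ratio, the gap to the nearest library over the range. Chance gives about 1 such group in 20. The ratio was 0.885 for *Lgr5* (KO replicate 3, 6.30 CPM), 0.839 for *Fgf21* (KO replicate 2, 19.4 CPM), 0.871 for *Olig1* (KO replicate 3, 10.7 CPM) and 0.842 for *Sult2a7* (KO replicate 2, 76.6 CPM).

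For 8 of the 46 called genes the genotype difference without cysteine differed from that on the control diet in edgeR's interaction test. The change in log2 fold change was -3.33 for *Wfdc2*, -0.51 for *Perp*, 0.87 for *Arsg*, -0.70 for *Cdc42bpg*, 0.87 for *Gstp1* and -0.68 for *Tmem19*. It was 5.98 for *Gm24270* and 4.33 for *Gm24187*, small non-coding loci, which came to 0.41 (adjusted p = 0.708) and 0.86 (adjusted p = 0.345) without WT replicate 3.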

How the results depend on the processing

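The number of genes called on the control diet depended on the tool and libraries. It was 46 in edgeR, 127 in DESeq2, 86 in limma-voom, 154 without a filter and 6 in a fit of the 7 libraries alone. It was 47 with RLE factors and 41 with library totals. Without ribosomal, small non-coding and unclassified genes it was 26, of 14111 tested. That setting kept mitochondrial tRNAs, so the genes it removed are not the same set as the small non-coding genes above. Leaving out 1 library gave 9 to 53. Of the 46, those also called in the same direction without cysteine numbered 27 (25 to 27 with 1 library left out), and without tryptophan 10 (6 to 10, the lowest without WT_noTrp replicate 1), 3 by limma-voom and 3 with only the compared groups fitted. An interaction was called for 8 without cysteine (4 to 8 with 1 library left out, the lowest without cse_noCys replicate 3), and for 0 without tryptophan (0 to 1, the highest without WT_noTrp replicate 2), or 1 in DESeq2 and 1 without a filter. The cause was not tested.

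Replicate numbers did not pair the samples: the correlation between deviations of the WT and KO libraries of the same number was 0.0977, 0.133 and 0.069 for numbers 1, 2 and 3, and WT replicate 1 alone correlated best with the KO library of its own number. With the replicate block 10 genes were called, and 5 interactions without cysteine. Among named genes 3 changed sign: *Myc* (-1.36) ranged from -1.87 to 1.08 (without WT replicate 1), and without WT replicate 3 *Gm24265* and *Gm25099* reached 0.85 and 1.34, their lowest values being -8.22 and -8.21. None of the 34 did under any alternative, but groups that do not overlap left little room for it. Genes below the count filter were not tested except in the fit without it.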
